A study of Mus musculus with 27 samples.

Results

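ATP-binding cassette (ABC) transporters are membrane proteins that use ATP to move drugs, conjugates, bile salts, sterols, lipids and peptides across membranes. The genes described here are those whose symbol reads Abca, Abcb, Abcc, Abcd, Abce, Abcf or Abcg followed by a digit, taken from probe sets annotated to a single symbol. The rule found 49 probe sets for 48 genes, of 19938 genes tested in all. Abcb5 had more than 1 probe set, and the brighter was used. The 48 genes divide into 16 of class Abca, 9 of Abcb, 10 of Abcc, 3 of Abcd, 1 of Abce, 3 of Abcf and 6 of Abcg. The symbols alone decide which genes belong, with no fold change or test in the rule.

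Expression was measured on 27 Affymetrix Mouse Gene 1.0 ST arrays of total RNA from TAMH cells, an immortalised hepatocyte line derived from mice with a transforming growth factor alpha transgene. Confluent cultures received 2 mM acetaminophen (APAP), 2 mM of its regioisomer AMAP, in which the ring hydroxyl group is meta instead of para, or control medium alone. RNA was taken after 2, 6 or 24 h, which gives 9 groups of 3 arrays numbered 30, 31 and 32. All 9 groups share the line and a serum-free medium with dexamethasone, nicotinamide, insulin, transferrin and selenium, so the control cultures carried these agents too. Nothing in the labels says that the 3 arrays of a group are separate cultures, so p-values here reflect only the scatter among these arrays, which may be technical.

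In hepatocytes, ABC transporters form the export stage of drug handling. Canalicular pumps such as P-glycoprotein (Abcb1a and Abcb1b), Abcc2 and Abcg2 move drugs and conjugates towards bile, Abcb11 exports bile salts and Abcb4 moves phosphatidylcholine. Abcc3 and Abcc4 export conjugates across the basolateral membrane towards blood. Abca1 and Abcg1 pass cholesterol to lipoprotein particles, and Abcg5 with Abcg8 forms the exporter of sterols into bile. The Abcd proteins serve peroxisomes and lysosomes, while Abce1 and the Abcf proteins act in translation and are not transporters.

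The deposited values are log2 signals, with array medians from 6.92 to 7.07 and correlations of 0.992 to 0.997 between replicate arrays across genes. Of the 16 hepatocyte markers listed, 14 were matched, and in control cultures their median rank among all genes was the percentile 94.6, against 22.3 for macrophage and leukocyte markers and 25.3 for endothelial markers. Fibroblast markers ranked at 43.7 and biliary and progenitor markers at 77.1. Since RNA came from whole cultures, fewer cells of a type and less RNA per cell cannot be told apart. Precision is limited by the small number of arrays: a difference between groups had a median standard error (SE) of 0.10 log2 units over these 48 genes.

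At 24 h the drug efflux pump gene Abcb1b separated the compounds: it was higher with APAP and lower with AMAP than in control cultures. The paralogue Abcb1a fell with AMAP and did not pass the test with APAP. With APAP at 24 h, Abcc4, Abcc5, Abcd4 and Abcg4 also rose, each by less than 1.5-fold. At 2 h and 6 h no ABC transporter gene passed the test in any comparison of treatments. In 6 h comparisons whose array numbers paired, a block for the number added a call for Abcb1b (APAP against AMAP) and, in its within-time form only, for Abca6 and Abca5. Over the 9 comparisons of treatments, 6 of the 48 genes passed the test at least once, the same share as among all genes (12.5% and 12.5%), and Abcb1b alone reached a 2-fold difference.

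Abcb1a and Abcb1b encode the drug-exporting P-glycoproteins of the mouse and are next to each other on chromosome 5, with Abcb4 as the following protein-coding gene. The genes are close paralogues, and no probe sequences were analysed here, so signal shared between their probe sets cannot be told apart from parallel change. Their promoter windows, shown because this pair gave the largest differences between the compounds among the called genes, were taken from RefSeq on GRCm38.p6 and run from 250 bases before to 50 after the annotated start. Both lie on the plus strand, Abcb1a at chr5:8566841-8567140 and Abcb1b at chr5:8797897-8798196. Capitals mark matches on either strand to 4 motifs searched: the CCAAT box (CCAAT), the GC box (GGGCGG), the antioxidant response element core (TGACNNNGC) and the AP-1 site (TGANTCA).
Abcb1a: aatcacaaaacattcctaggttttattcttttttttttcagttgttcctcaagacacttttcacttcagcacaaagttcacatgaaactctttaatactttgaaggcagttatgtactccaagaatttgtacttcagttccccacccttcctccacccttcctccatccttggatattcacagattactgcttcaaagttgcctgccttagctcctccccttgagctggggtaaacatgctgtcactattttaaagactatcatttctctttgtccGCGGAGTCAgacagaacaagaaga
Abcb1b: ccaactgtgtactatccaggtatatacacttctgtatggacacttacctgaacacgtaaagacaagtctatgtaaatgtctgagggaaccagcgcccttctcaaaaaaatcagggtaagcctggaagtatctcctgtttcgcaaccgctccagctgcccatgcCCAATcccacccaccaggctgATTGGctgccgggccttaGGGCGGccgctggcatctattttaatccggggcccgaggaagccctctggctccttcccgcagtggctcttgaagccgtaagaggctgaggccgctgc
The Abcb1b window held CCAAT at 87 bases before the start, its reverse complement at 66 bases before and a GC box at 48 bases before. The Abcb1a window held 1 match to TGACNNNGC, on the reverse strand and 27 bases after the start, and none to the other motifs. No base belonged to more than 1 match. Of 32851 windows of this length in the RefSeq table, 37.4% held CCAAT, 35.7% the GC box, 12.4% TGACNNNGC and 7.8% TGANTCA. These matches describe letters in the window, and binding was not measured.

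In control cultures at 24 h, Abcb1b read 9.57, 9.73 and 9.91 on arrays 30, 31 and 32, on the log2 scale used for all levels here. With APAP it read 10.17, 9.94 and 10.64, and with AMAP 8.92, 8.92 and 9.02. All arrays with APAP lay above all control arrays, and all arrays with AMAP lay below them. The difference from control was 0.51 ± 0.14 (SE, 3 arrays in each group) with APAP, a 1.43-fold rise (limma, adjusted p = 0.0167). With AMAP it was -0.78 ± 0.14, a 1.72-fold fall (adjusted p = 0.0044). These comparisons share the control arrays. The direct comparison of the compounds, which uses no control array, gave 1.30 ± 0.14 higher with APAP, or 2.46-fold, with a 95% interval of 1.02 to 1.58 (adjusted p = 7.87e-07). The rise with APAP lost its call without APAP array 32 (0.32, adjusted p = 0.1294), control array 30 (0.43, 0.0950) or control array 31 (0.51, 0.0565). The fall with AMAP and the difference between compounds kept their calls when any single array was left out. The fall with AMAP lost its call when all arrays of number 30 (adjusted p = 0.0927) or of number 31 (adjusted p = 0.1285) were left out. The rise with APAP lost its call without all arrays of number 30 (adjusted p = 0.1711) or of number 32 (adjusted p = 0.0928). With only the arrays compared in the fit, the rise was lost as well (adjusted p = 0.0981).

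At 2 h, Abcb1b levels overlapped among the groups, at 9.60, 9.89 and 9.84 in control, 9.73, 9.92 and 9.91 with APAP and 9.54, 9.91 and 9.65 with AMAP. At 6 h the control arrays read 9.90, 9.98 and 9.84, the APAP arrays 9.84, 10.04 and 10.28 and the AMAP arrays 9.43, 9.67 and 9.47. The 3 AMAP arrays lay below all other arrays at that time. The difference between AMAP and control at 6 h was -0.39 (adjusted p = 0.3026), and between APAP and AMAP 0.53 (adjusted p = 0.0757). Array numbers paired the arrays of the latter comparison, and with the number as a block it passed the test (adjusted p = 0.0255). The AMAP difference from control moved by -0.71 ± 0.19 between 2 h and 24 h, which did not pass the test (adjusted p = 0.5276).

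Abcb1a read 8.52, 8.68 and 8.77 in control cultures at 24 h, 8.78, 8.52 and 9.11 with APAP, and 7.88, 8.21 and 8.26 with AMAP. The AMAP arrays lay below the others, whereas APAP and control overlapped. Abcb1a was lower with AMAP than in control by -0.54 ± 0.12 (adjusted p = 0.0296) and higher with APAP than with AMAP by 0.68 ± 0.12 (adjusted p = 7.93e-04). Its APAP difference from control was 0.15, with a 95% interval of -0.10 to 0.39 (adjusted p = 0.5243). The AMAP call was lost without AMAP array 30 or 31 or control array 31 or 32. It was also lost without all arrays of number 30, 31 or 32 (adjusted p = 0.3799, 0.2675 and 0.0697). The within-time block (adjusted p = 0.0584) and a fit on only the arrays compared (adjusted p = 0.0716) lost it too. The call between compounds was lost without all arrays of number 30 (adjusted p = 0.1046) and with only the arrays compared (adjusted p = 0.0576). At 6 h the difference between AMAP and control was -0.39 (adjusted p = 0.2047).

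**Figure D1:**
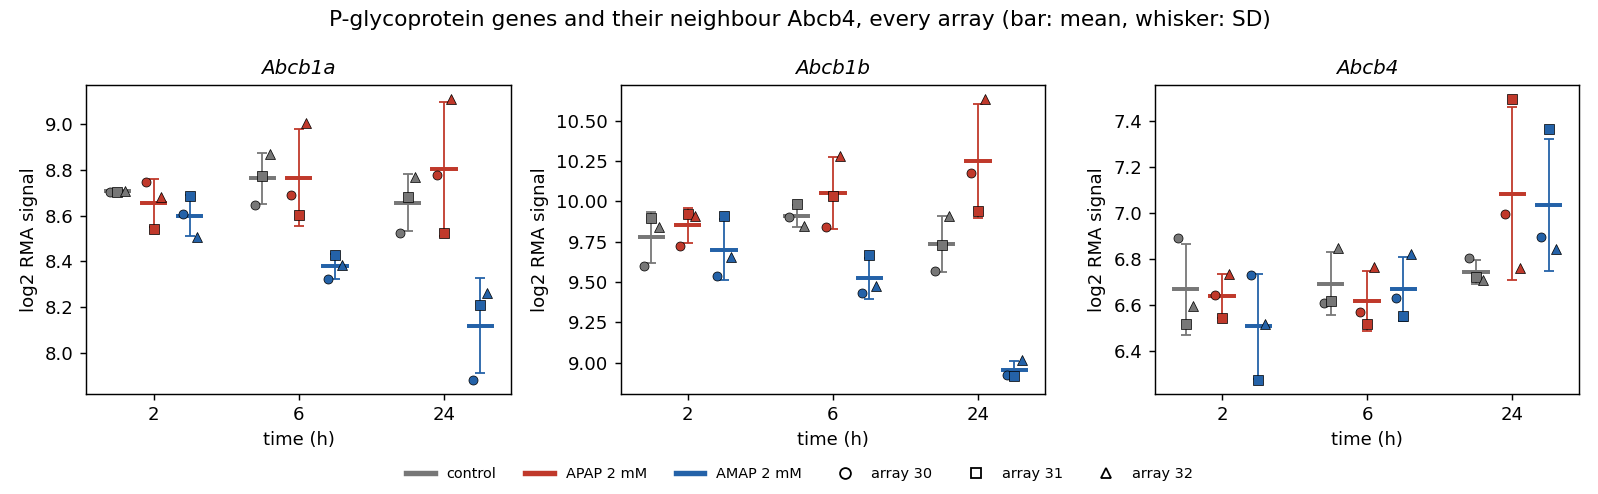
Log2 signal of Abcb1a and Abcb1b on every array, by treatment and time, with symbols for arrays, bars for group means and whiskers for the SD. At 24 h the Abcb1b arrays with APAP lie between 9.94 and 10.64 and those with AMAP between 8.92 and 9.02.

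Abcc4 and Abcc5, exporters of conjugates and cyclic nucleotides, rose with APAP at 24 h. Abcc4 read 8.68, 8.65 and 8.66 in control cultures, 9.39, 8.84 and 9.30 with APAP and 9.19, 8.85 and 9.10 with AMAP. All arrays of either compound lay above all control arrays, and the arrays of the compounds overlapped. The APAP difference from control was 0.51 ± 0.11 (adjusted p = 0.0046), and it kept its call when any single array was left out. The call was lost without all arrays of number 30 (adjusted p = 0.1392) or of number 32 (adjusted p = 0.0910), and with only the arrays compared in the fit (adjusted p = 0.0535). The AMAP difference was 0.39 ± 0.11 and did not pass the test (adjusted p = 0.1173). APAP minus AMAP was 0.13, with a 95% interval of -0.11 to 0.36 (adjusted p = 0.5878), so a difference between the compounds was not shown. Within control cultures Abcc4 was lower at 24 h than at 2 h by -0.39 (adjusted p = 0.0867), which did not pass the test. The APAP difference from control at 24 h exceeded that at 2 h by 0.53 ± 0.16 (adjusted p = 0.1764), likewise without a call. At 2 h Abcc4 read 9.08, 9.02 and 9.07 in control, with group means of 9.04 for APAP and 9.02 for AMAP. At 6 h it read 8.68, 9.01 and 9.07 in control, 9.00, 9.04 and 9.09 with APAP and 9.20, 9.15 and 9.16 with AMAP. The AMAP arrays of 6 h lay above the others, by 0.25 ± 0.11 over control (adjusted p = 0.4903). Across the times the control level was lowest at 24 h, and the levels with APAP and AMAP at 24 h lay near the control level of 2 h.

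Abcc5 read 8.79, 8.84 and 8.83 in control cultures at 24 h, 9.21, 9.04 and 9.09 with APAP and 8.66, 8.77 and 8.72 with AMAP. The 3 groups did not overlap, with APAP above and AMAP below the controls. The APAP difference from control was 0.29 ± 0.08 (adjusted p = 0.0271) and APAP exceeded AMAP by 0.40 ± 0.08 (adjusted p = 0.0050). The AMAP difference from control was -0.11 ± 0.08 (adjusted p = 0.7024). At 6 h the APAP arrays, at 8.74, 8.87 and 8.74, also lay above the AMAP arrays, at 8.58, 8.73 and 8.37, by 0.22 ± 0.08 (adjusted p = 0.4377). The control arrays of 6 h, at 8.66, 8.86 and 8.80, overlapped both. The call for the rise over control at 24 h was lost without APAP array 30 or any single control array. It was also lost without all arrays of number 30, 31 or 32 (adjusted p = 0.3524, 0.0829 and 0.0963). The difference between compounds lost its call without all arrays of number 30 (adjusted p = 0.2597) or of number 32 (adjusted p = 0.0583). With only the arrays compared in the fit, both calls were lost (adjusted p = 0.0707 for the rise and 0.0516 between compounds).

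The other Abcc genes always described here did not pass the test at 24 h. Abcc2, the canalicular exporter of conjugates, read 11.33, 11.19 and 11.22 in control, 11.46, 11.80 and 11.33 with APAP and 11.47, 11.98 and 11.51 with AMAP. The AMAP arrays lay above control by 0.41 ± 0.13 (adjusted p = 0.1686), and the APAP range met that of the controls. Abcc3 read 9.58, 9.55 and 9.71 in control, 9.81, 9.81 and 9.58 with APAP and 10.01, 10.02 and 9.99 with AMAP. The AMAP arrays exceeded all others, and the AMAP difference from control was 0.39 ± 0.14 (adjusted p = 0.2080). Abcc1, an exporter of glutathione conjugates, overlapped in all 3 groups, with 95% intervals of -0.32 to 0.09 for APAP and -0.23 to 0.18 for AMAP against control. Abcc6, a hepatic transporter whose loss causes ectopic calcification, differed by 0.02 with APAP (-0.22 to 0.26) and by 0.20 with AMAP (-0.04 to 0.44).

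**Figure D2:**
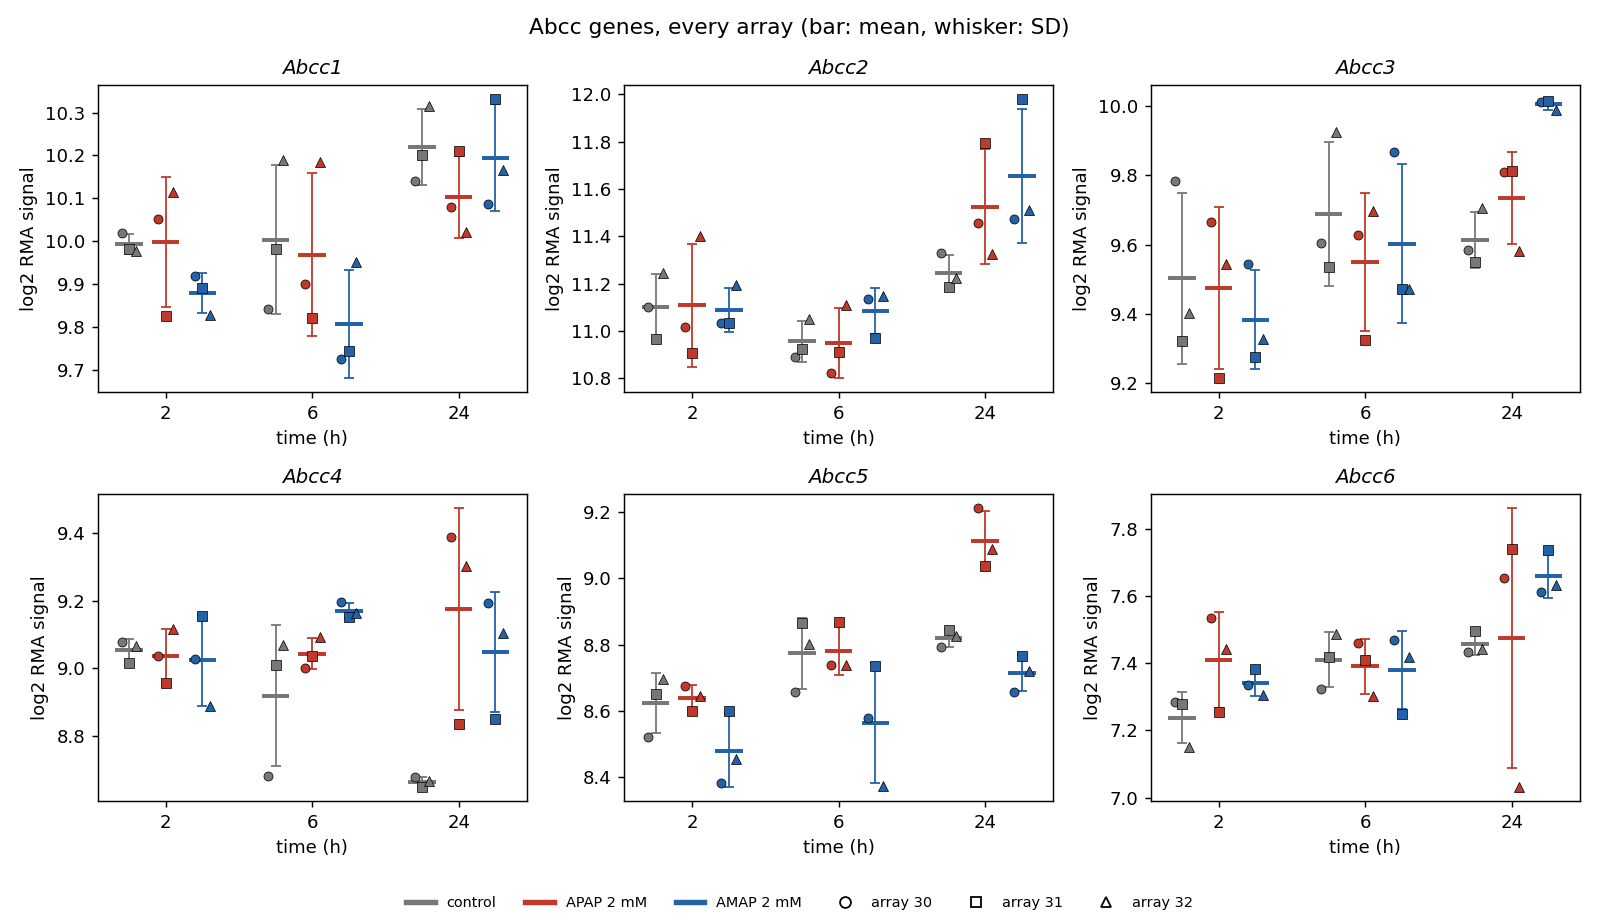
Log2 signal of Abcc genes on every array, by treatment and time, with symbols for arrays, bars for group means and whiskers for the SD. At 24 h the Abcc4 control arrays lie between 8.65 and 8.68, below all arrays of APAP and AMAP.

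Abcd4, a lysosomal protein needed for the release of cobalamin, read 7.77, 7.78 and 7.81 in control cultures at 24 h, 8.04, 7.93 and 8.06 with APAP and 7.85, 7.75 and 7.87 with AMAP. The APAP arrays lay above all others, by 0.23 ± 0.07 over control (adjusted p = 0.0498). Abcg4, a cholesterol exporter best known from brain, read 7.01, 6.98 and 7.14 in control, 7.26, 7.34 and 7.29 with APAP and 7.07, 7.10 and 7.08 with AMAP. Here too the APAP arrays lay above all others, by 0.25 ± 0.08 over control (adjusted p = 0.0441). The Abcd4 call was lost when any single APAP or control array of 24 h was left out, while that of Abcg4 remained only without control array 32. At 6 h the APAP arrays of Abcd4, at 8.08, 8.03 and 8.11, lay above control at 7.78, 7.80 and 7.94, as did the AMAP arrays at 8.07, 8.06 and 7.99. Neither difference passed the test (0.24 ± 0.07, adjusted p = 0.0977, and 0.20 ± 0.07, adjusted p = 0.3368). Of the other Abcd genes, Abcd3, the peroxisomal importer of fatty acyl-CoA, differed by 0.11 with APAP (95% interval -0.10 to 0.32) and by 0.26 with AMAP (0.05 to 0.47, adjusted p = 0.3095).

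Read over all 48 genes, APAP against control at 24 h gave 5 higher and 0 lower, or 10.4% called. Of all 19938 genes, 9.33% were called, 3.36% as higher and 5.97% as lower, so the total share called was near the background and the calls among ABC genes were all upward. With the array number as a block, 5 were called higher and 1 lower (Abcb8), though the numbers were not taken as pairs in this comparison. The median difference of the ABC genes was 0.11 log2 units, beside 0.02 for all genes. AMAP against control at 24 h gave 0 higher and 2 lower, or 4.17%, where 0.727% of all genes were called, 0.311% as higher and 0.416% as lower. APAP against AMAP at 24 h gave 3 higher and 0 lower, or 6.25%, where 4.65% of all genes were called, 1.87% as higher and 2.78% as lower. Array numbers paired the arrays of this comparison. With the number as a block 6 genes were called, 4 higher with APAP (Abcb1a, Abcb1b, Abcc5 and Abcg2) and 2 lower (Abcb6 and Abcb8). Without a block Abcg2, the breast cancer resistance protein, was higher with APAP than with AMAP by 0.27 ± 0.09 (adjusted p = 0.0645). The mitochondrial transporters Abcb8 and Abcb6 were at -0.39 ± 0.12 (adjusted p = 0.0515) and -0.33 ± 0.11 (adjusted p = 0.0774).

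Other scalings shifted the split of calls over all genes. With arrays centred on their medians, APAP against control called 518 genes higher and 1675 lower in place of 670 and 1190, and quantile normalization called 899 and 1013. The ABC genes then stood at 3 higher and 0 lower, and at 6 higher and 0 lower. Of the 6 with quantile normalization, 4 were among the 5 called on the deposited values. For APAP against AMAP, centring gave 302 higher and 1123 lower in place of 373 and 555, and the ABC genes stood at 3 higher and 2 lower.

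Arrays that did not overlap were more frequent than calls. With APAP at 24 h, 11 ABC genes had all arrays above control and 2 had all below, against 13.3% and 13.7% of all genes. With AMAP the counts were 11 above and 5 below, against 8.71% and 10.7%. Between the compounds, APAP exceeded AMAP without overlap for 12 genes and lay below for 3, against 12.3% and 10.1%.

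**Figure D3:**
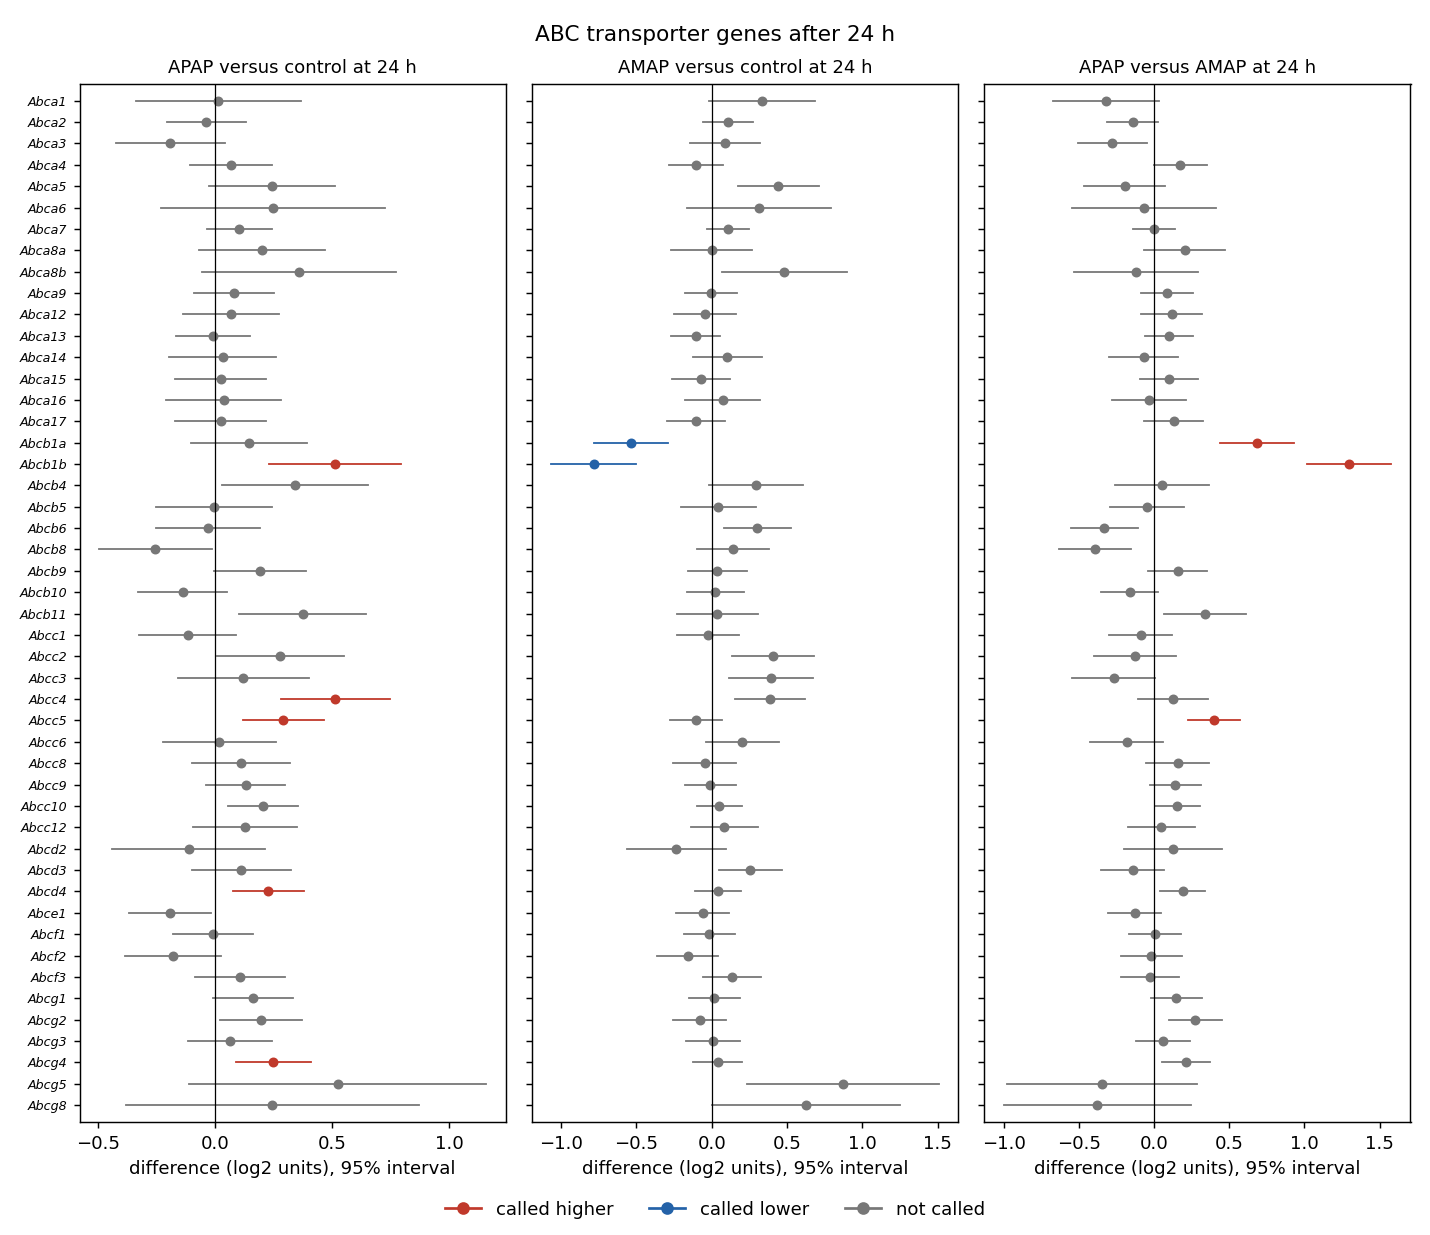
Differences of the 48 ABC transporter genes at 24 h on the log2 scale, one gene a row, with 95% intervals and called genes in colour, for APAP against control, AMAP against control and APAP against AMAP; the horizontal ranges of the panels differ. Abcb1b lies at 0.51, -0.78 and 1.30 in turn.

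The mean signal of biliary and progenitor markers was lower with either compound at 6 h as well as at 24 h. The mean log2 signal of the 5 matched markers (Krt7, Krt19, Epcam, Sox9 and Cftr) was 8.99, 8.84 and 8.88 on the control arrays of 24 h, 8.50, 8.21 and 8.40 with APAP and 8.62, 8.21 and 8.40 with AMAP. All arrays of either compound lay below control. The same held at 6 h, where the control arrays read 9.03, 8.89 and 9.04. Those with APAP read 8.81, 8.59 and 8.74, and those with AMAP 8.72, 8.50 and 8.51. At 24 h, 1 of the 5 passed the test with APAP (Sox9, -0.35 ± 0.11, adjusted p = 0.0441) and 0 passed with AMAP by limma, where 9.33% and 0.727% of all genes were called. The hepatocyte marker mean at 24 h was 10.69, 10.46 and 10.54 in control, 10.59, 10.99 and 10.46 with APAP and 10.66, 10.84 and 10.62 with AMAP, without separation of the groups. Of the 14 matched markers, 1 was called lower and 0 higher with APAP against control, where 5.97% of all genes were called lower. AMAP against control gave 0 calls. APAP against AMAP gave 2 lower and 0 higher, where 2.78% of all genes were called lower. The part of these markers in the ABC transporter results was not tested.

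Some sterol and lipid transporters, foremost Abcg5 and Abcg8, had wide spreads between arrays of a group. Abcg5 and Abcg8, which together form the biliary sterol exporter, start beside each other on opposite strands of chromosome 17. The Abcg5 window is shown because it overlaps that of Abcg8 by 209 bases, so the pair shares most of this sequence. It covers chr17:84682962-84683261 on the minus strand of GRCm38.p6, from RefSeq, with the same motifs searched and matches in capitals.
Abcg5: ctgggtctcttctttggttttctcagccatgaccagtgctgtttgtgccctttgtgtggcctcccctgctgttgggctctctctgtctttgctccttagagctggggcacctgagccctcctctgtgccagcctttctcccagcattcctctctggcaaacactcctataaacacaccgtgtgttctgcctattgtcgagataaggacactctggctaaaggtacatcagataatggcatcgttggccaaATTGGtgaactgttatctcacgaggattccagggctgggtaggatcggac
The single match is CCAAT on the reverse strand, 1 base after the start. The overlapping Abcg8 window, at chr17:84682871-84683170 on the plus strand, held CCAAT at 175 and 114 bases before its own start. The match at 114 bases covers the same bases of the chromosome as the Abcg5 match. A second Abcg8 window, at chr17:84676052-84676351, held no match to the motifs.

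Abcg5 read 8.45, 7.94 and 7.89 in control cultures at 24 h, 8.58, 9.57 and 7.70 with APAP and 8.80, 9.43 and 8.67 with AMAP. Abcg8 read 8.23, 7.65 and 7.57 in control, 8.03, 9.01 and 7.15 with APAP and 8.50, 8.77 and 8.05 with AMAP. For both genes array 31 was the highest of its group with either compound, and array 30 was the highest in control. The standard deviation (SD) over the 3 APAP arrays was 0.93 for each gene. The Abcg5 difference from control was 0.52 ± 0.31 with APAP (adjusted p = 0.3378) and 0.87 ± 0.31 with AMAP (adjusted p = 0.2288), with all AMAP arrays above control. For Abcg8 these were 0.24 ± 0.30 (adjusted p = 0.6990) and 0.62 ± 0.30 (adjusted p = 0.4476). Without APAP array 32, Abcg5 was higher with APAP than in control by 0.98 ± 0.28 and passed the test (adjusted p = 0.0297). At 2 h and 6 h the groups overlapped for both genes, with Abcg5 arrays from 7.80 to 9.01 and Abcg8 arrays from 7.50 to 8.72.

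Array 31 was also the highest for other lipid transporters. Abca1, which loads cholesterol onto apolipoprotein A-I, read 8.99, 8.83 and 8.81 in control, 8.77, 9.32 and 8.59 with APAP and 8.87, 9.65 and 9.12 with AMAP at 24 h. The groups overlapped, and the differences from control were 0.01 (95% interval -0.34 to 0.37) with APAP and 0.33 (-0.02 to 0.69) with AMAP. Abcb4, the phosphatidylcholine floppase, read 6.80, 6.72 and 6.71 in control, 6.99, 7.50 and 6.76 with APAP and 6.90, 7.36 and 6.84 with AMAP. All AMAP arrays lay above control, by 0.29 ± 0.15 (adjusted p = 0.4922), and the APAP difference was 0.34 ± 0.15 (adjusted p = 0.1753). Without APAP array 32 the APAP difference was 0.50 ± 0.16 and passed the test (adjusted p = 0.0423). In the APAP group at 24 h, array 31 gave the highest value for 30 of the 48 genes (62.5%) and for 33.5% of all genes. In the AMAP group it did so for 25 (52.1%), and for 29.5% of all genes. The hepatocyte marker mean was likewise highest on array 31 in both groups, at 10.99 and 10.84, and its part in these levels was not tested.

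Abcg1, an exporter of cholesterol to high-density lipoprotein, differed from control by 0.16 (95% interval -0.01 to 0.33) with APAP and by 0.02 (-0.15 to 0.19) with AMAP. Abca3, a phospholipid transporter of lamellar bodies, differed by -0.19 (-0.42 to 0.04) and 0.09 (-0.14 to 0.32). For Abcg2 the APAP arrays of 24 h, at 10.39, 10.21 and 10.36, lay above the control arrays at 10.18, 10.10 and 10.09 and the AMAP arrays at 10.10, 9.95 and 10.08. Its APAP difference from control was 0.19 ± 0.09 and did not pass the test (adjusted p = 0.1677). With quantile normalization this difference was 0.26 ± 0.08 and passed (adjusted p = 0.0378).

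**Figure D4:**
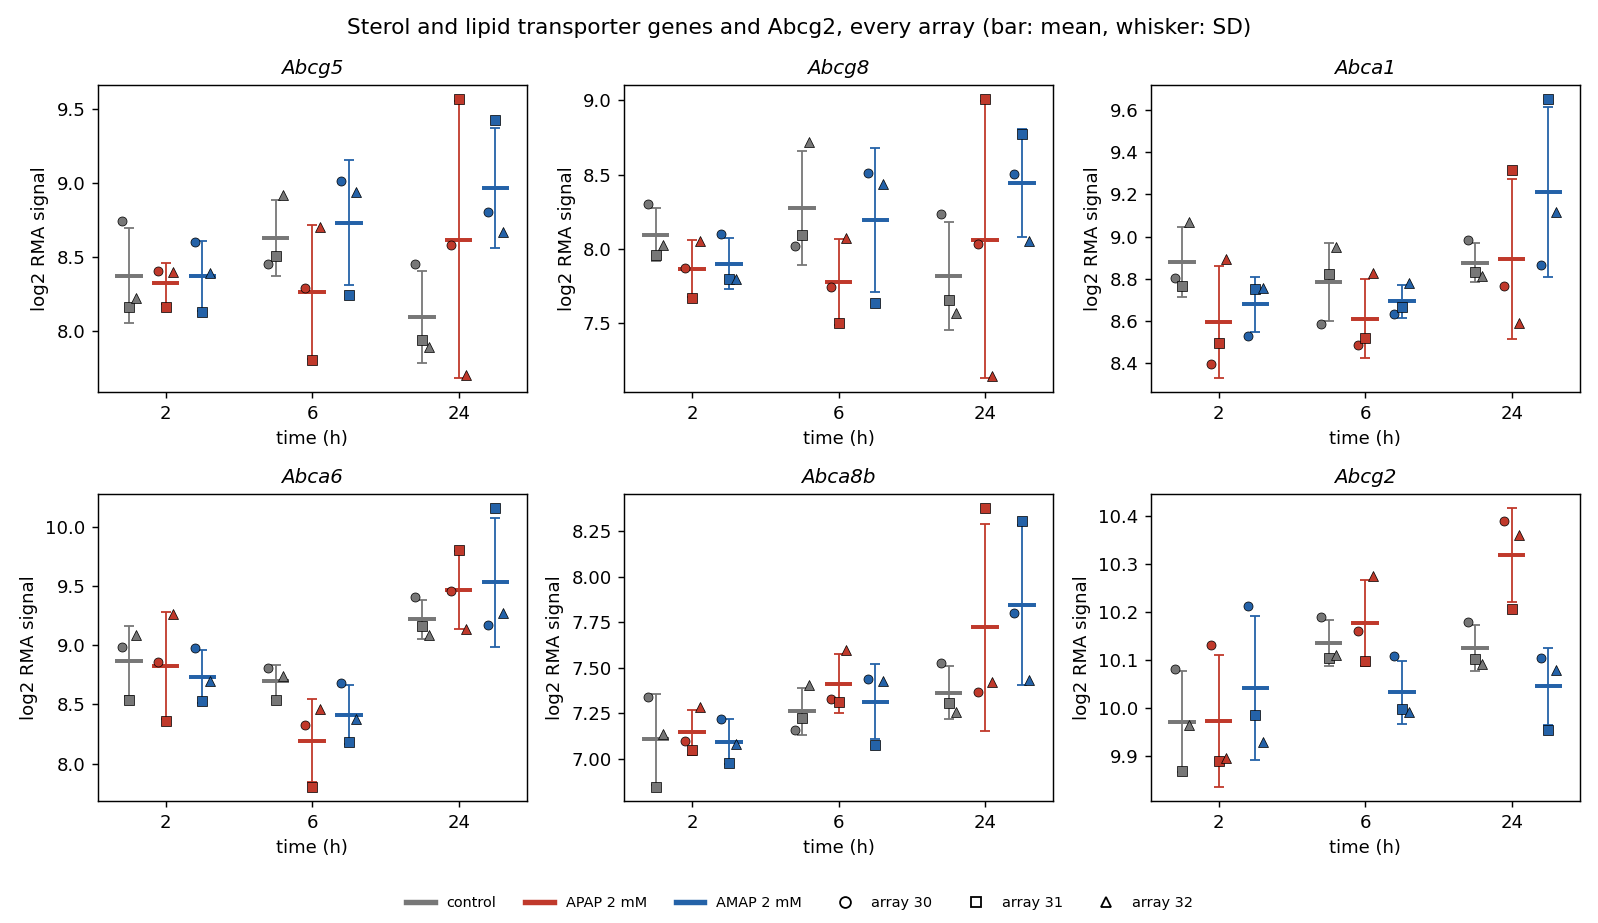
Log2 signal of sterol and lipid transporter genes on every array, by treatment and time, with symbols for arrays, bars for group means and whiskers for the SD. In the APAP group at 24 h Abcg5 spans 7.70 to 9.57, with array 31 the highest.

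A set of 10 genes had group means below 6 on the log2 scale throughout, a level taken here as dim: Abca8a, Abca9, Abca12, Abca13, Abca15, Abca16, Abcb5, Abcb11, Abcd2 and Abcg3. Without a block for the array number, none of the 10 was called in the 9 comparisons of treatments. The bile salt export pump gene Abcb11 belonged to this set, with 5.51, 5.27 and 5.26 in control cultures at 24 h, 5.56, 5.78 and 5.82 with APAP and 5.27, 5.41 and 5.47 with AMAP. The APAP arrays lay above all others, by 0.37 ± 0.13 over control (adjusted p = 0.0742). With the array number as a block within the 24 h arrays, Abcb11 was called (adjusted p = 0.0444). The numbers were not taken as pairs in this comparison. The Abcf genes and Abce1 gave no call in any comparison of treatments either.

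At the earlier times limma called 0 of the 48 genes in every comparison of treatments. Over all genes, 0.682% were called at 2 h and 2.50% at 6 h for APAP against control, 0.181% and 0.456% for AMAP against control, and 0.261% and 0.707% for APAP against AMAP. At an unadjusted p under 0.05, APAP against control gave 2 ABC genes at 2 h (4.17%, beside 9.26% of all genes) and 5 at 6 h (10.4%, beside 12.3%). AMAP against control gave 1 (2.08%, beside 6.80%) and 7 (14.6%, beside 9.47%). APAP against AMAP gave 5 (10.4%, beside 9.33%) and 4 (8.33%, beside 7.41%). Apart from the 7 genes of AMAP at 6 h, these shares lay near or below those of all genes. Differences of these genes from control at 2 h ran from -0.29 to 0.21 with APAP and from -0.23 to 0.13 with AMAP.

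Between times, control cultures also gave 0 calls among the 48 genes by limma. Of all genes, 0.707% were called for 6 h against 2 h, 0.0150% for 24 h against 6 h and 1.14% for 24 h against 2 h. At an unadjusted p under 0.05 the ABC genes numbered 1 (2.08%, beside 9.33% of all genes), 5 (10.4%, beside 7.69%) and 8 (16.7%, beside 14.0%) in turn. The change in effect from 2 h to 24 h was called by limma for 0 ABC genes with APAP, where 0.356% of all genes were called, and for 0 with AMAP, where 0% were. At an unadjusted p under 0.05 these contrasts gave 3 ABC genes (6.25%, beside 9.46% of all genes) and 10 (20.8%, beside 4.70%). A call at 24 h and none at 2 h therefore does not show a difference between times, which was tested and did not pass. Over the 9 groups, group means of an ABC gene ranged over a median of 0.38 log2 units, beside 0.29 for all genes. The range exceeded 1 for Abca6 (1.34), a class A transporter, and for Abcb1b (1.30). The lowest Abca6 group was APAP at 6 h, with 8.32, 7.80 and 8.46, and the highest was AMAP at 24 h, with 9.17, 10.16 and 9.27. At 6 h the APAP arrays of Abca6 lay below control at 8.81, 8.54 and 8.74, by -0.50 ± 0.23, without a call (adjusted p = 0.3725). Array numbers paired the arrays of this comparison, and Abca6 was called with the number as a block within the 6 h arrays but not with the block over all 27 arrays.

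**Figure D5:**
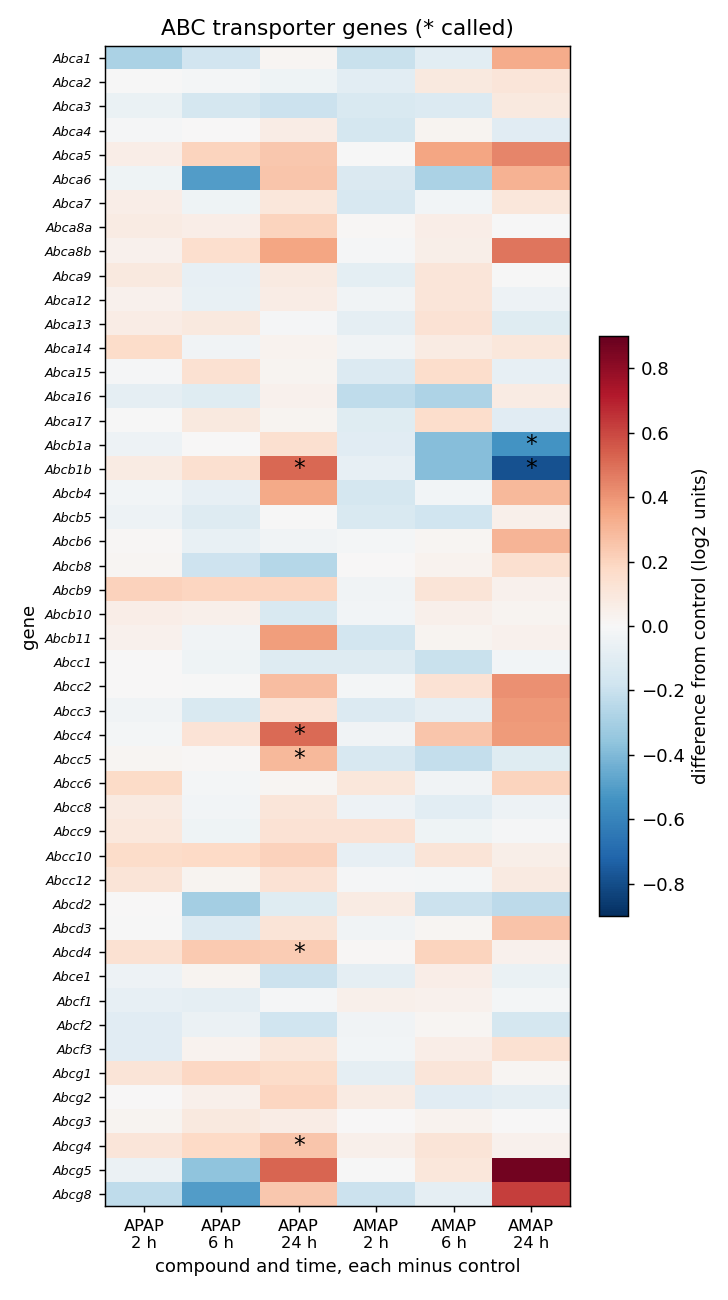
Differences of the 48 ABC transporter genes from control of the same time in log2 units, with genes in rows, compound and time in columns and an asterisk where limma called the gene. The asterisks lie in the 24 h columns, 5 for APAP and 2 for AMAP.

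Other genes of these pathways were read from lists outside the family. Among ABC proteins with other names (Tap1, Tap2 and Cftr), 1 of 3 rose with APAP at 24 h, the peptide transporter subunit Tap1 (0.59 ± 0.16, adjusted p = 0.0170), where 3.36% of all genes rose. The other members, without a call, were at -0.21 for Tap2 and -0.59 for the chloride channel Cftr, and the list median was -0.21. With APAP at 24 h, 2 of 16 receptors and factors known to act on ABC transporter genes were lower and 0 were higher, where 5.97% of all genes were called lower. These were Srebf2, which drives cholesterol synthesis genes (-0.62 ± 0.10, adjusted p = 1.35e-04), and the bile acid-responsive repressor Nr0b2 (-0.33 ± 0.09, adjusted p = 0.0202). Against AMAP, APAP gave 1 lower, Srebf2 at -0.51 (adjusted p = 0.0016), and AMAP against control gave 0, where 0.727% of all genes were called. Calls in this list also came earlier. APAP against control gave 1 of 16 lower at 2 h and 2 of 16 lower at 6 h, with 0 higher. Of all genes, 0.682% and 2.50% were called either way. Of 5 targets of the liver X receptors outside the family, 2 fell with APAP at 24 h (Srebf1 and Scd1), where 5.97% of all genes were called lower. The list median was -0.05, and movement of the list as a whole was not tested. With AMAP 0 passed the test, where 0.727% of all genes were called. APAP against AMAP at 24 h gave 2 lower, where 2.78% of all genes were called lower, and a list median of -0.24. Of 14 partner genes, 1 rose with APAP at 24 h, the glutathione synthetase Gss (0.28 ± 0.08, adjusted p = 0.0280), where 3.36% of all genes rose, and 0 passed with AMAP.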

How the data were processed

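Total RNA from TAMH cells was hybridised to 27 Affymetrix Mouse Gene 1.0 ST arrays, per the labels. The deposited log2 values were made by the authors with RMA in Affymetrix Expression Console 1.1, per the submitters' processing notes; the log base was read from their range, and probe-level and detection data were not analysed here. The table held 35557 probe sets, of which 21789 had 1 symbol in the platform annotation, 1621 several and 12147 none. For the 999 genes with over 1 probe set the highest mean was kept, which left 19938 genes, without a filter on dim genes. Beyond the choice of probe set, the dim level and the marker percentiles, levels of different probe sets were not compared.

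The model had a mean for each of 9 groups and was fitted with limma 3.58.1 in R 4.3.3 (18 residual and 7.3 prior degrees of freedom). The call threshold was an adjusted p of 0.05 (Benjamini-Hochberg) over all 19938 genes within a comparison, two-sided. Members and lists were chosen with earlier results of these data known. Named were all members called in a comparison of treatments, a panel of 16 fixed members, and others singled out after their values were seen (Abcb6, Abcb8 and Abca6). Abca5 and Abcc10 are named for calls under alternatives only. All 48 genes matched the RefSeq gene table and 38 had promoter windows.

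Deviations of arrays from group means were correlated across genes; each number exceeded 0.1 in 5 of 9 comparisons (APAP against control at 2 h and 6 h, AMAP against control at 6 h, APAP against AMAP at 6 h and 24 h), where numbers were taken as pairing, from the data. The alternatives were a block for the number, other scalings, variance priors, dim genes, only the arrays compared, and leaving out arrays. The limma fit was tried on simulated data with independent noise on each array, which does not reproduce pairing by number.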

Additional observations from a re-analysis of the deposited data

How the results depend on the processing

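Of the 10 calls among named genes and comparisons, tried under 18 alternatives each, 124 of 180 kept their side of the threshold, 56 lost it and 0 reversed. For APAP against control at 24 h, the 5 ABC genes called became 3 with arrays centred on their medians and 0 with only the arrays compared. For AMAP against control at 24 h, 2 became 1 with only the arrays compared and 1 with a replicate block within the time, an alternative added after seeing the data. For APAP against AMAP at 24 h, 3 became 6 with the replicate block fixed, 5 with it random, 5 with it within the time, 5 with centring, 5 without dim genes, 5 with a trended robust prior and 1 with only the arrays compared. For APAP against AMAP at 6 h, 0 became 1 (Abcb1b) with each form of the replicate block and with quantile normalization. The within-time block also gave 1 (Abca6) for APAP against control at 6 h and 1 (Abca5) for AMAP against control at 6 h, and the fit on the arrays compared gave 1 (Abcc4) for control cultures at 24 h against 2 h. Where only the arrays compared were fitted, fewer arrays estimate the spread; elsewhere the cause was not tested. Leaving out arrays, singly or by number, gave 0 to 5 genes for APAP against control at 24 h, 0 to 2 for AMAP against control, 1 to 4 for APAP against AMAP and 0 to 1 for the change in the APAP effect from 2 h to 24 h, where the 1 was Abcc4 without APAP array 31 of 24 h. Without APAP array 30, 31 or 32 the first count was 2, 3 and 5, and without control array 30, 31 or 32 it was 1, 1 and 3. The 5 without APAP array 32 shared only 2 genes, Abcc4 and Abcc5, with the 5 called on all arrays. The others were Abcb4, Abcc10 and Abcg5. Abcb1b between the compounds at 24 h kept its call in 18 of 18 alternatives.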
